A study of Mus musculus with 8 samples.

Results

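The serotonin receptor genes are 10 of the 39017 genes counted in RNA pulled down from hippocampal CCK cells of mice with a conditional deletion of SMARCA3 and of their littermates. The 10 members, Htr1a, Htr1b, Htr1d, Htr1f, Htr2a, Htr2c, Htr3a, Htr4, Htr5a and Htr7, were named by symbol, and each was matched to 1 row of the count table through its Ensembl identifier. The other 4 receptor genes of the family in the table, Htr2b, Htr3b, Htr5b and Htr6, are given for comparison.

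The RNA came from translating ribosome affinity purification (TRAP), in which ribosomes carrying the tagged subunit L10-EGFP are captured together with the RNA bound to them. Every mouse was CCK cre+ and L10-EGFP+, so the tag is made in cells in which the cholecystokinin gene has driven Cre. The 5 conditional knockout (cKO) libraries came from animals that were also SMARCA3 fl/fl, that is, with both copies of Hltf, the gene of the chromatin remodelling enzyme SMARCA3, flanked by loxP sites. The 3 libraries called wild type (WT) are from littermates without SMARCA3 fl/fl, which carry Cre and the tag too; whether they have a single floxed copy is not given in the sources used here. Each library pools 4 hippocampi; age, sex and the number of animals are not given in the sources used here, and input RNA was not analysed here. How the pools were assembled from animals is not labelled, so the p-values measure only the spread between these 8 pools.

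Serotonin reaches the hippocampus in axons of raphe neurons and acts there through receptors of several families. The HTR1 and HTR5 receptors couple to inhibitory Gi/o proteins, the HTR2 receptors to Gq and phospholipase C, and HTR4, HTR6 and HTR7 to Gs and adenylyl cyclase, whereas the HTR3 receptor is a cation channel opened by serotonin. In the hippocampus HTR1A is known as a receptor of pyramidal cells that opens potassium channels, and Htr3a marks a class of interneurons that includes many CCK basket cells. The protein p11, encoded by S100a10, is known to bind HTR1B and HTR4 and to bring them to the cell surface, and SMARCA3 is known as a binding partner of the p11 and annexin A2 complex.

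Values are in CPM, the counts of a gene divided by the library's total, with totals scaled by the trimmed mean of M-values (TMM). Hltf, the deleted gene, had 5.10, 4.49, 4.21, 2.83 and 11.4 CPM in cKO 1 to 5, against 13.7, 8.39 and 9.87 CPM in WT 1 to 3. The first 4 cKO libraries lay below every WT library and the library labelled cKO 5 lay among the WT libraries, against its label. The log2 fold change of Hltf was -0.93 ± 0.39 (SE; edgeR adjusted p = 0.558). Without the library labelled cKO 5 it was -1.36 (edgeR unadjusted p = 0.00034, adjusted p = 0.359), and without cKO 4 -0.76 (edgeR adjusted p = 0.632). With cKO 1 to 3 against WT 1 to 3 it was -1.21 (edgeR adjusted p = 0.247). The library labelled cKO 5 was singled out by its Hltf level, so the fits without it are descriptive. The exact permutation p of Hltf over all libraries (two-sided) was 0.107, where the smallest p that 5 against 3 libraries allow is 0.0179. Total counts per library ran between 31760155 and 61823651, with no difference between the groups detected (exact permutation p = 0.839). In the principal components of log2 CPM over all tested genes, cKO 4 lay far from the rest on the second component, and the library labelled cKO 5 on the first. In edgeR's quasi-likelihood test no gene of 17654 tested passed an adjusted p of 0.05 (0% called), and 1540 had an unadjusted p under 0.05 (8.72%).

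Glutamatergic markers were abundant in the pull-downs, which is a limit on calling the RNA that of CCK interneurons: Cck is also expressed in pyramidal cells. Summed, 8 glutamatergic markers, Camk2a among them, ran from 7898 to 11945 CPM in cKO and from 7388 to 7894 CPM in WT libraries. The sum of 10 CCK interneuron markers was 969 to 1147 CPM in cKO and 869 to 960 CPM in WT. The group ranges of these sums did not overlap, as for 7.19% of single genes tested. The nearest libraries were close, at 7898 CPM in cKO against 7894 CPM in WT and at 969 against 960 CPM. Camk2a and Cck were the largest parts of these sums. The single markers did not all lie the same way. Of these, 4 of 8 glutamatergic and 6 of 10 CCK interneuron markers fitted above 0, and the other 4 of each list below. Of the glutamatergic markers, 2 (Slc17a7 and Camk2a) had an unadjusted edgeR p under 0.05 and a higher level in cKO (5.02% of all genes tested). For a lower level the count was 0 (3.7% of all), and for the CCK interneuron markers it was 0 in both directions. Slc17a7 ran from 439 to 548 CPM in cKO and from 333 to 365 CPM in WT (edgeR adjusted p = 0.470). Camk2a alone averaged 7567 ± 1515 CPM in cKO (n = 5) and 6076 ± 226 CPM in WT (n = 3), and Cck 661 ± 108 CPM in cKO and 540 ± 112 CPM in WT. The sum of 11 GABAergic markers was 144 to 262 CPM in cKO and 189 to 233 CPM in WT, with overlap. Of the markers of serotonergic neurons, Fev and Slc6a4 were absent or nearly so, and Tph2 was low but detected. Fev was at 0 in all 8 libraries, Slc6a4, the serotonin transporter, reached 0.125 CPM in cKO and 0.0618 CPM in WT, and Tph2, the neuronal enzyme of serotonin synthesis, lay between 0.281 and 2.13 CPM in cKO and between 1.91 and 2.07 CPM in WT.

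No serotonin receptor passed the test of cKO against WT. Of the 10 members, 9 passed the filter on low counts and Htr1d did not. None of the 9 had an adjusted p under 0.05, against 0% of all genes, and none had an unadjusted p under 0.05, against 8.72% of all genes tested, of which 5.02% were higher and 3.7% lower. For none of the 10 did the CPM ranges of the groups lie apart, as they did for 7.19% of all genes tested. The fitted log2 fold change was above 0 for 7 of the 9 members, against 9362 of all 17654 genes tested. The median was 0.17 over the members and 0.02 over all genes tested. Without cKO 4, Htr1a, Htr1f and Htr4 stayed above 0, whereas Htr1b (-0.02), Htr2a (-0.11), Htr5a (-0.10) and Htr7 (-0.08) lay below. Htr2c and Htr3a were below 0 with and without cKO 4. The 95% intervals given below show how far a member's fold change was measured.

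**Figure D1:**
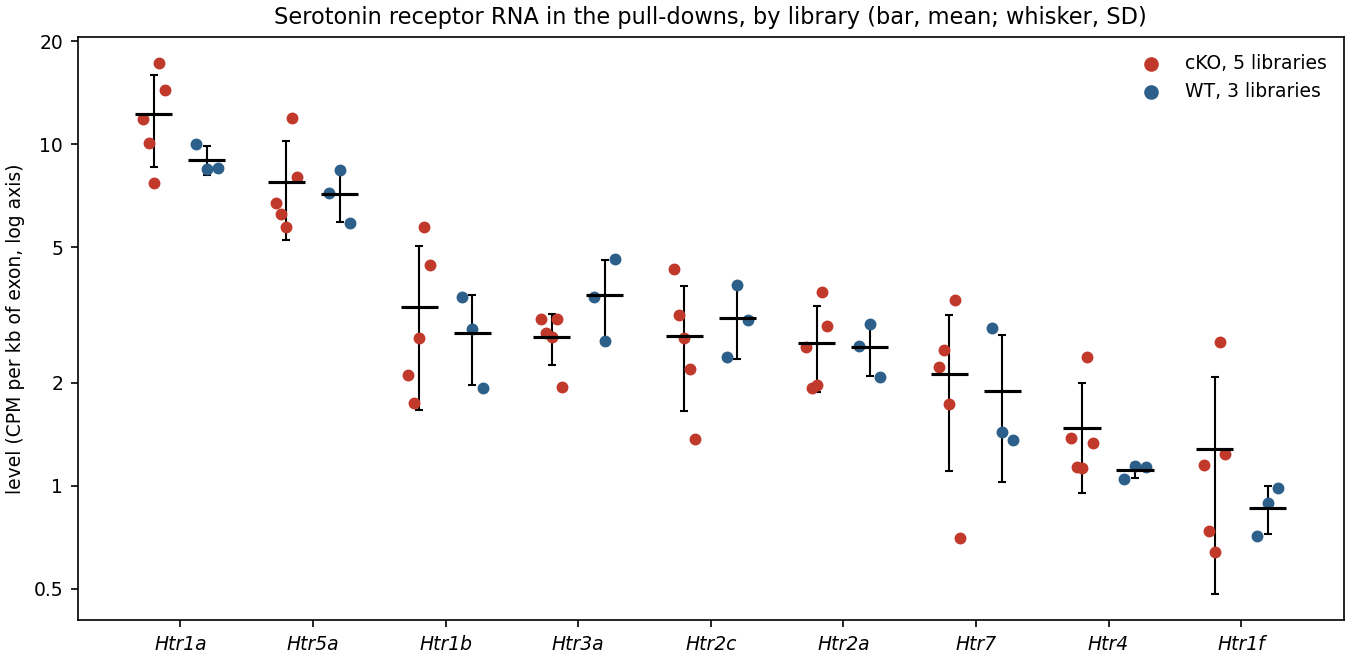
Level of 9 serotonin receptor genes in CPM per kilobase of exon (log axis); points are libraries, cKO left and WT right of each gene, the thick bar is the mean and the whisker the SD. Htr1a and Htr5a stand above the other genes, and the cKO and WT points overlap for every gene; Htr1d, at 0.0428 CPM per kb on average, lies below the axis.

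Levels can be compared between genes only per length, so CPM was divided by the exon length of each gene. Htr1a stood first at 11.0 ± 3.32 CPM per kb and Htr5a second at 7.52 ± 2.03 CPM per kb (mean ± SD, n = 8 libraries). Htr1a was above Htr5a in 8 of 8 libraries, and Htr5a above the next member in 8 of 8. Together with the next 4, these genes covered most of the RNA of the 10 members. Htr1b had 3.14 ± 1.38, Htr3a 3.06 ± 0.779, Htr2c 2.88 ± 0.933 and Htr2a 2.59 ± 0.606 CPM per kb, and these 4 swapped places between libraries: Htr1b exceeded Htr3a in 4 of 8, Htr3a exceeded Htr2c in 5 of 8 and Htr2c exceeded Htr2a in 5 of 8. Htr7 followed with 2.04 ± 0.911, Htr4 with 1.34 ± 0.438 and Htr1f with 1.12 ± 0.645 CPM per kb. Only Htr1d, at 0.0428 ± 0.0742 CPM per kb, had a range below that of its neighbour without overlap. By the longest transcript in place of all exons, Htr2c moved to rank 3, Htr1b to rank 4 and Htr3a to rank 5. In TPM, Htr3a had rank 3 and Htr1b rank 4. The other ranks were the same.

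Among the 10 members, Htr1a and Htr5a led the receptor RNA in both genotypes. Of the summed level per kb of the 10 members, Htr1a took 33.6 ± 3.96% in cKO (n = 5) and 28.0 ± 2.01% in WT (n = 3). Htr5a took 21.1 ± 1.44% in cKO and 22.2 ± 2.93% in WT. Htr3a took 7.83 ± 2.11% in cKO and 11.4 ± 3.83% in WT. Htr1b came next in cKO, at 8.96 ± 2.94% in cKO and 8.59 ± 1.99% in WT, whereas Htr3a came next in WT. These shares were not tested. Among all genes tested, the mean level per kb of Htr1a stood at percentile 74.3 and that of Htr1f at percentile 30.1.

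Htr1a encodes the inhibitory receptor that also serves as the autoreceptor of raphe neurons. Its gene is 1 exon of 4484 bases on chromosome 13 (mm10, positions 105443639 to 105448122, plus strand). Htr1a had 53.3, 45.3, 34.6, 77.4 and 64.8 CPM in cKO 1 to 5, against 44.8, 37.9 and 38.2 CPM in WT 1 to 3. cKO 4 and the library labelled cKO 5 gave the highest values, cKO 3 the lowest, and the groups overlapped. The log2 fold change was 0.45 ± 0.23 (SE; 95% interval -0.04 to 0.95, edgeR adjusted p = 0.604; exact permutation p = 0.214). It was the member nearest to the threshold, at rank 2059 by p among all genes tested. Its value varied with the libraries used, and it was called under none of the alternatives. Without cKO 3 its unadjusted edgeR p was 0.0104 and its adjusted p 0.623 (adjusted p 0.379 to 0.951 over all alternatives), and with cKO 1 to 3 against WT 1 to 3 the log2 fold change was 0.13.

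Htr1b encodes an inhibitory receptor known from axon terminals, where it limits transmitter release. Its gene lies on chromosome 9 (positions 81628291 to 81633828, minus strand), with the coding sequence in 1 exon. Htr1b had 9.98, 8.25, 12.8, 27.0 and 20.997 CPM in cKO 1 to 5, against 16.8, 13.6 and 9.13 CPM in WT 1 to 3. Again cKO 4 and the library labelled cKO 5 were highest, and the other cKO libraries lay within or just below the WT range. The log2 fold change was 0.26 ± 0.38 (95% interval -0.57 to 1.09, edgeR adjusted p = 0.889). With cKO 1 to 3 against WT 1 to 3 it was -0.36, on the other side of 0.

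In part of its exons, reads of Htr1b cannot be told apart from those of a gene on the opposite strand unless the counting used strand. Whether it did is not given in the sources used here. The level per kb of Htr1b and its rank carry the same limit. The antisense gene D430036J16Rik overlaps 852 exon bases of Htr1b on chromosome 9, which are 73.6% of its 1158 coding bases and 18.0% of its 4724 exon bases. Below are 123 of the shared coding bases, a stretch where an antisense exon lies wholly inside Htr1b. They are shown as an example, because reads from either gene would carry them (mm10 chr9:81632358-81632480, minus strand, read 5′ to 3′ on the Htr1b strand). Capitals mark the 63 bases that a shorter form of this exon, in another antisense transcript, also covers.
Htr1b coding stretch: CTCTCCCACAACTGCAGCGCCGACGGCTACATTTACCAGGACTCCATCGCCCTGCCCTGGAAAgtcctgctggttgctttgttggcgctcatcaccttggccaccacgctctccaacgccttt
D430036J16Rik had 11.1, 13.1, 15.2, 28.2 and 21.8 CPM in cKO 1 to 5, against 25.7, 12.8 and 11.2 CPM in WT 1 to 3. Its highest library was also cKO 4. Its log2 fold change was 0.11 ± 0.35 (edgeR adjusted p = 0.959).

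**Figure D2:**
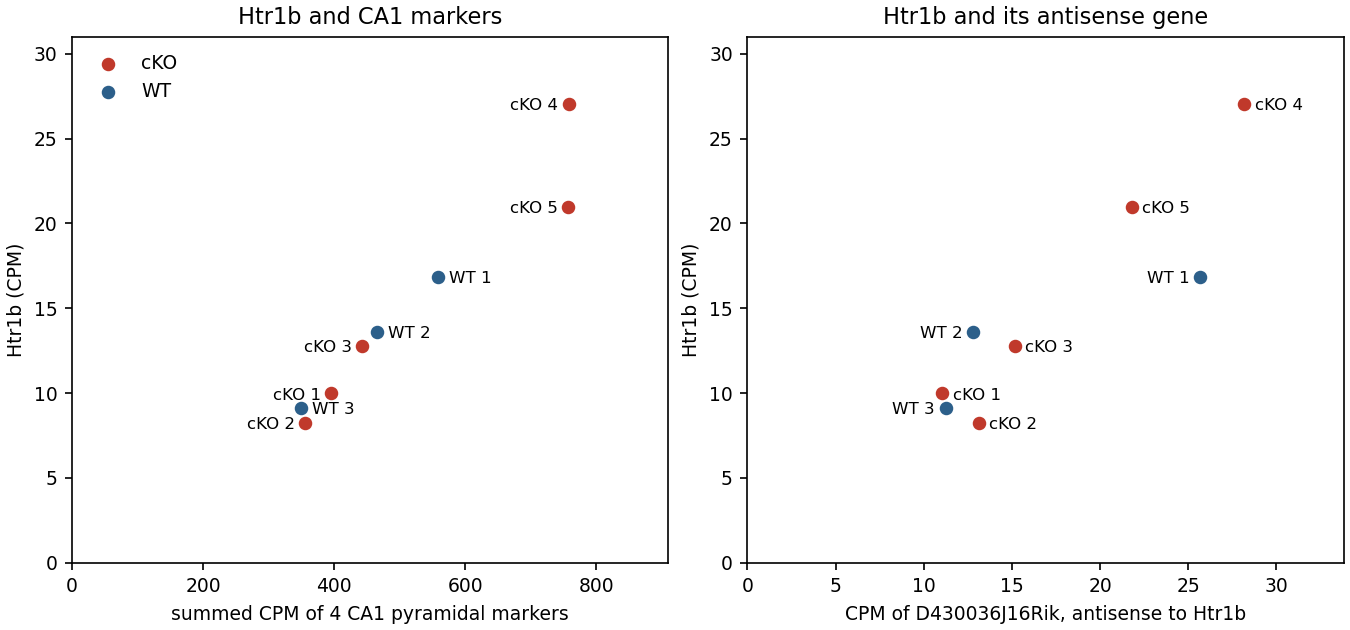
Htr1b in CPM against the summed CPM of 4 CA1 pyramidal markers (left) and against the CPM of the antisense gene D430036J16Rik (right); each point is 1 library, red for cKO and blue for WT. cKO 4 and the library labelled cKO 5 have the highest Htr1b in both plots, with WT 1 next and WT 2 after it; WT 3, at 9.13 CPM, lies between cKO 1 and cKO 2.

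Htr1a and Htr1b were both highest in cKO 4 and next in the library labelled cKO 5, as was Htr1f. Among the other libraries Htr1a was highest in cKO 1 and Htr1b in WT 1. The promoters of Htr1a and Htr1b are shown, from RefSeq for GRCm38.p6 (250 bases before to 50 bases after the start). CG dinucleotides, which read the same on both strands and can carry DNA methylation, are in capitals. The Htr1a window holds 7 and the Htr1b window 11; the median over the 32851 windows of the table is 7, and 94.6% of windows hold at least 1.
Htr1a promoter, chr13:105443443-105443742, plus strand: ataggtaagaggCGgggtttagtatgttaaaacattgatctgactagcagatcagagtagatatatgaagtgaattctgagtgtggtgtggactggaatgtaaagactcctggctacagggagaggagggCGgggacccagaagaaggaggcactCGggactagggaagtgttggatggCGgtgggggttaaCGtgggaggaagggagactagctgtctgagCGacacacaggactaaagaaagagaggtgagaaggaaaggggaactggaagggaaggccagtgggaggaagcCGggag
Htr1b promoter, chr9:81633783-81634082, minus strand: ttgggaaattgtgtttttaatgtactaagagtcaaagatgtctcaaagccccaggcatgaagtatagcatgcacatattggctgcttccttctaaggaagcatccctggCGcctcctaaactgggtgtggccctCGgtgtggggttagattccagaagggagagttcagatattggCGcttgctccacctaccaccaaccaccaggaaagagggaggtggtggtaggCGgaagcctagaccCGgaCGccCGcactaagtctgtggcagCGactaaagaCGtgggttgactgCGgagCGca
Of the 10 members, 8 had a window in the table. Counts of CG were 5 for Htr2c, 6 for Htr2a, 13 for Htr1f, 14 for Htr5a, and 7 and 28 in the windows of Htr1d. The Htr7 window held 46, and 98.6% of all windows held that many or fewer. These counts describe the letters only, since methylation and factor binding were not measured.

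Htr5a encodes another Gi/o-coupled receptor, expressed mainly in the nervous system, from a gene on chromosome 5 (positions 27842149 to 27855088, plus strand). Htr5a had 36.2, 33.6, 30.7, 64.2 and 43.1 CPM in cKO 1 to 5, against 38.7, 45.2 and 31.7 CPM in WT 1 to 3. All libraries but cKO 4 lay in or near the WT range, and the log2 fold change was 0.11 ± 0.23 (95% interval -0.40 to 0.62, edgeR adjusted p = 0.931). Its relative Htr5b, a gene that is functional in mice, had a level of 5.89 CPM per kb over 8 libraries, between those of Htr5a and Htr1b. Htr5b had 12.8, 5.19, 13.7, 16.1 and 11.3 CPM in cKO 1 to 5, against 15.7, 9.08 and 7.19 CPM in WT 1 to 3, with a log2 fold change of 0.15 ± 0.35 (edgeR adjusted p = 0.941).

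Htr1f and Htr1d, the remaining Gi/o-coupled members, were the least abundant. Both receptors bind antimigraine triptans. Htr1f lies on chromosome 16 (positions 64924729 to 65105854, minus strand) and Htr1d on chromosome 4 (positions 136423524 to 136444398, plus strand). Htr1f had 2.97, 1.90, 1.65, 6.78 and 3.21 CPM in cKO 1 to 5, against 1.83, 2.29 and 2.54 CPM in WT 1 to 3. Only cKO 4 stood far from the others. Its log2 fold change, 0.57 ± 0.47, was the largest fitted above 0 among the members and had the widest interval (-0.46 to 1.60, edgeR adjusted p = 0.776). For Htr1d the counts themselves were 5, 3, 1, 0 and 2 in cKO 1 to 5, against 1, 36 and 6 in WT 1 to 3. WT 2 alone thus held most of them, and all cKO libraries lay between the values of WT 1 and WT 3 or below. The count of 0 in cKO 4 allows up to 0.0648 CPM, the level of 3 counts in that library; this limit covers counting error only. The exact permutation test of CPM gave a p of 0.0893.

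The Gq-coupled members were Htr2a and Htr2c. Htr2a, on chromosome 14 (positions 74640840 to 74709494, plus strand), encodes the receptor through which classical hallucinogens act. Htr2a had 14.3, 10.9, 11.0, 20.8 and 16.5 CPM in cKO 1 to 5, against 14.4, 16.7 and 11.7 CPM in WT 1 to 3. Means were 14.7 ± 4.13 CPM in cKO (n = 5) and 14.2 ± 2.48 CPM in WT (n = 3). The fitted log2 fold change was 0.04 ± 0.24 (95% interval -0.49 to 0.57, edgeR adjusted p = 0.979), an interval that runs from 0.714-fold to 1.49-fold. Htr2b, of the same class, stayed at or below 0.249 CPM in cKO and 0.538 CPM in WT, and its exons overlap those of Psmd1 on the opposite strand.

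Htr2c encodes a receptor that is edited at the RNA level and is most abundant in choroid plexus, from a gene on chromosome X (positions 146962513 to 147197277, plus strand). Htr2c had 40.1, 29.5, 25.3, 20.6 and 12.8 CPM in cKO 1 to 5, against 22.2, 36.1 and 28.5 CPM in WT 1 to 3. Here cKO 1 was highest and the library labelled cKO 5 lowest, whereas cKO 4 was the highest for the tested members above. The log2 fold change was -0.17 ± 0.30 (95% interval -0.84 to 0.50, edgeR adjusted p = 0.911), and 0.12 with cKO 1 to 3 against WT 1 to 3. The summed level of 10 choroid plexus markers ran from 44.5 to 98.1 CPM in cKO and from 37.3 to 54.2 CPM in WT, with Ttr and Kl among the most abundant and Otx2 and Folr1 at no more than 0.187 CPM in cKO and 0.330 CPM in WT. The sum was largest in the library labelled cKO 5, which had the least Htr2c, but the single markers differed. Of the 10, only Ttr (31.6 CPM) and Kl (41.6 CPM) were highest in that library. Clic6, Kcne2, Slc4a5, Calml4 and Prlr were highest in cKO 4, and Clic6 and Kcne2 were at 0 CPM in the library labelled cKO 5. Of the 10 markers 6 were tested, all 6 fitted above 0 and 1 had an unadjusted p under 0.05, against 5.02% of all genes tested in that direction. The part of choroid plexus RNA in the level of Htr2c was not tested.

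Htr3a, on chromosome 9 (positions 48899213 to 48911099, minus strand), encodes a channel subunit and is the only member that is not coupled to G proteins. Htr3a had 6.42, 5.82, 5.68, 6.39 and 4.05 CPM in cKO 1 to 5, against 7.42, 5.54 and 9.61 CPM in WT 1 to 3. Its level was the most even of the members over cKO libraries, with a coefficient of variation of 17.0% in cKO and 27.1% in WT. The log2 fold change was -0.41 ± 0.26 (95% interval -0.97 to 0.16, edgeR adjusted p = 0.694; exact permutation p = 0.143), the largest fitted below 0 among the members. WT 3 was highest, and 4 of the 5 cKO libraries lay above WT 2. It stayed below 0 under every alternative run, between -0.59 and -0.19. Htr3b, the other channel subunit, had 4 counts in WT 3 and 0 in the other 7 libraries, and was not tested. Bulk counts do not tell fewer cells of a type from less RNA per cell.

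Among the Gs-coupled members, Htr4 encodes a receptor that raises cyclic AMP in pyramidal and granule cells. Its gene lies on chromosome 18 (positions 62324204 to 62496577, plus strand). Htr4 had 6.78, 5.58, 5.55, 11.7 and 6.55 CPM in cKO 1 to 5, against 5.13, 5.62 and 5.59 CPM in WT 1 to 3. Only cKO 4 lay well above the WT libraries, which were the most even of any member, with a coefficient of variation of 35.4% in cKO and 5.0% in WT. On the log2 scale the fold change was 0.41 ± 0.29 (95% interval -0.22 to 1.04, edgeR adjusted p = 0.734), and 0.17 without cKO 4. Htr7, on chromosome 19 (positions 35958734 to 36057507, minus strand), encodes a receptor known for its part in circadian timing. Htr7 had 7.55, 8.50, 5.89, 11.9 and 2.39 CPM in cKO 1 to 5, against 9.86, 4.88 and 4.62 CPM in WT 1 to 3. The spread was wide in both groups, and the library labelled cKO 5 was lowest. Its log2 fold change was 0.17 ± 0.44 (95% interval -0.81 to 1.15, edgeR adjusted p = 0.949). Htr6, of the same class, lay between 0.216 and 1.41 CPM in cKO and between 0.372 and 0.825 CPM in WT, with an edgeR adjusted p of 0.967.

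**Figure D3:**
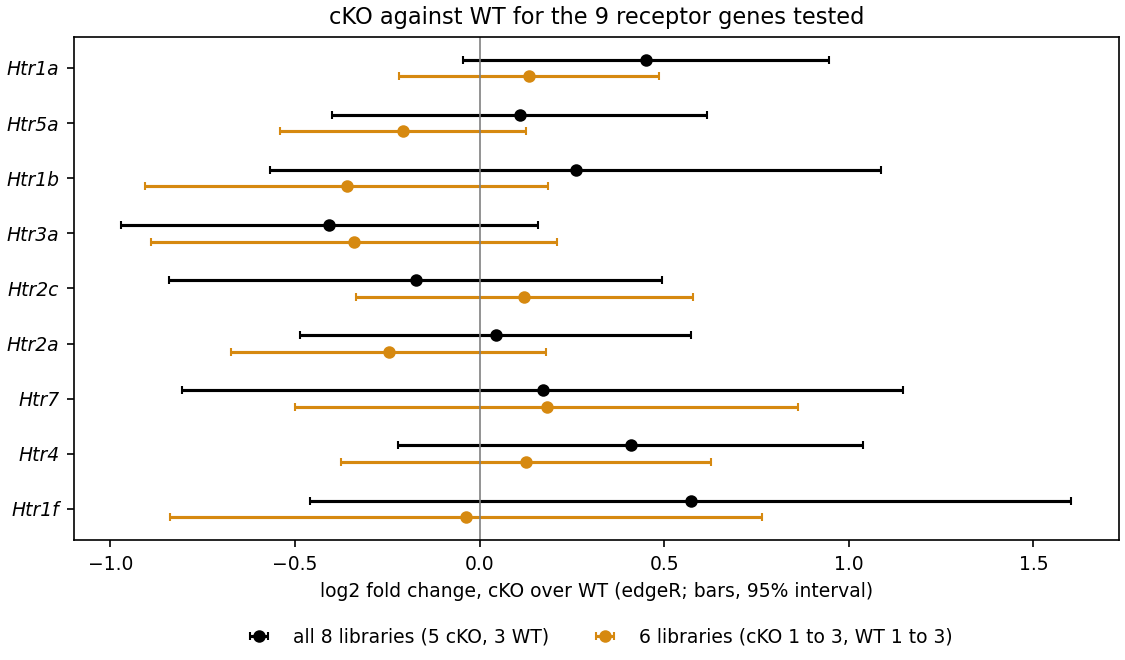
Fitted log2 fold change of cKO over WT for the 9 members tested (edgeR), with 95% intervals, over all 8 libraries (black) and over cKO 1 to 3 against WT 1 to 3 (orange). Every interval spans 0, and Htr1b, Htr1f, Htr2a, Htr2c and Htr5a lie on opposite sides of 0 in the 2 fits. The orange fit leaves out cKO 4, which had the lowest Hltf of all libraries (2.83 CPM), and the library labelled cKO 5 (11.4 CPM).

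The highest values of the receptors were mostly in 1 cKO library, whereas the lowest values were spread over several libraries. The library cKO 4 gave the highest CPM of all 8 for 7 of the 9 members tested (Htr1a, Htr1b, Htr1f, Htr2a, Htr4, Htr5a and Htr7), against 17.5% of all genes tested. The library labelled cKO 5 gave the lowest for 3 of the 9 (Htr2c, Htr3a and Htr7), against 22.8% of all genes tested. The lowest of another 3 (Htr1a, Htr1f and Htr5a) was in cKO 3, against 8.69% of all genes tested. It was in cKO 2 for 2 (Htr1b and Htr2a), against 9.37%, and in WT 1 for Htr4, against 12.6%. As deviations of log2 CPM from the mean over 8 libraries, Htr1f stood at 1.38 and Htr1b at 0.98 in cKO 4, and Htr7 at -1.39 and Htr2c at -0.99 in the library labelled cKO 5.

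The sums of CA1 and CA3 markers were also extreme in cKO 4 and the library labelled cKO 5. The summed level of 4 CA1 pyramidal markers was 395, 356, 443, 758 and 757 CPM in cKO 1 to 5, against 559, 466 and 350 CPM in WT 1 to 3. cKO 4 and the library labelled cKO 5 were the highest, as they were for Htr1a and Htr1b. For 4 CA3 pyramidal markers the sum was 343, 324, 316, 137 and 143 CPM in cKO 1 to 5, against 245, 243 and 308 CPM in WT 1 to 3. The same libraries thus had the lowest sums, and the lowest Grik4, Bok and Cpne4. Coch, also on the list, was highest of all 8 libraries in cKO 4, at 9.29 CPM. It was lowest in the library labelled cKO 5, at 3.48 CPM. The sum of 4 dentate granule markers was lowest in cKO 4 and ran from 32.3 to 90.3 CPM in cKO and from 39.6 to 95.9 CPM in WT. All 4 members of each of these 3 lists were detected and tested. None had an unadjusted p under 0.05 in either direction, against 8.72% of all genes tested. The sum of 7 oligodendrocyte markers was 46.3 to 66.2 CPM in cKO, against 36.9 to 43.4 CPM in WT. These ranges did not overlap, as for 7.19% of single genes tested. All 7 fitted above 0, as did 9362 of all 17654 genes tested, and 3 had an unadjusted p under 0.05 and a higher level in cKO (5.02% of all). The part of the cells behind these markers in the receptor values was not tested. With cKO 1 to 3 against WT 1 to 3 no member was called either, and the fitted log2 fold changes of the 9 members lay between -0.36 (Htr1b) and 0.18 (Htr7).

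**Figure D4:**
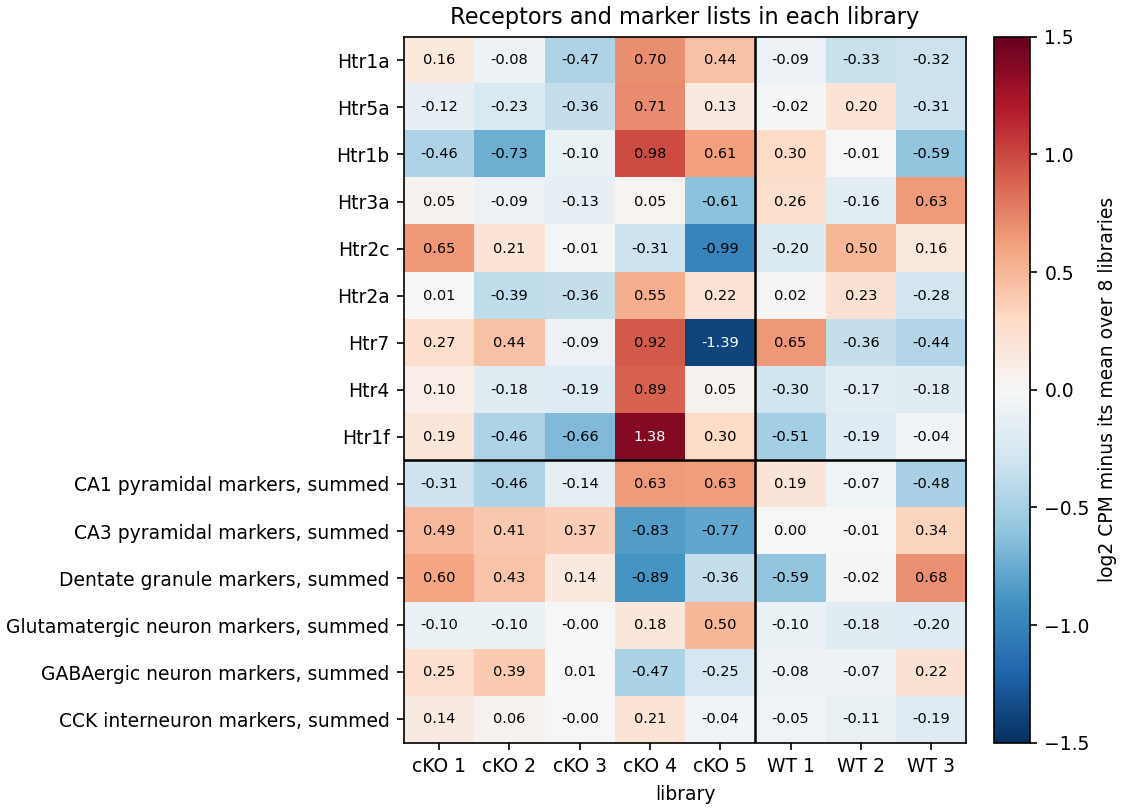
Log2 CPM minus its mean over the 8 libraries (colour and number) for 9 receptor genes and for the summed CPM of marker lists, with cKO libraries left of the vertical line and WT libraries right of it. cKO 4 is above the mean for all receptors shown but Htr2c. In cKO 4 and the library labelled cKO 5 the summed CA1 markers are high and the summed CA3 markers low.

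For the 3 members with the highest level per length, the genes most alike in pattern were sought among 9678 genes by the correlation of log2 CPM over 8 libraries, given as a description since the libraries share depth and make-up. For Htr1a these were Lclat1 (Pearson r = 0.97), Ralgapb (0.95) and Gla (0.95). For Htr5a they were Per2 (0.98), Cyb561 (0.96) and Tmem200a (0.96). For Htr1b they were Tmem191c (0.98), Rasgef1a (0.97) and Wfs1 (0.97). In the 6 libraries other than cKO 4 and the one labelled cKO 5, r was 0.85, 0.83 and 0.79 for the Htr1a genes, 0.92, 0.87 and 0.95 for the Htr5a genes and 0.99, 0.93 and 0.93 for the Htr1b genes, in the same order. Wfs1 is on the CA1 marker list as well. It had 158, 123, 150, 320 and 304 CPM in cKO 1 to 5, against 215, 185 and 124 CPM in WT 1 to 3.

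Genes of the receptors' pathways were taken from lists of transmitter supply, G protein coupling and partner proteins, and no gene of these lists passed the adjusted threshold. Of 7 genes of serotonin supply and removal, 5 were tested, none at an unadjusted p under 0.05 (8.72% of all genes tested). Their median log2 fold change was -0.68, the value of Maob, where the median over all genes tested was 0.02. Tph2, at a mean of 0.898 CPM in cKO and 1.99 CPM in WT, had a log2 fold change of -1.13 ± 0.62 (edgeR adjusted p = 0.639). Maob and Maoa, the monoamine oxidases, had log2 fold changes of -0.68 ± 0.51 (edgeR adjusted p = 0.755) and 0.33 ± 0.25 (edgeR adjusted p = 0.755). Maob was at 0.543 CPM in the library labelled cKO 5, and without that library its log2 fold change was -0.42.

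Of 9 genes of Gi/o coupling and its effectors, all 9 were tested, with a median of 0.09. None had an unadjusted p under 0.05, against 8.72% of all genes tested. Rgs4, which speeds the shut-off of Gi/o and Gq proteins, averaged 367 ± 85.9 CPM in cKO (n = 5) and 449 ± 57.7 CPM in WT (n = 3), with a log2 fold change of -0.29 ± 0.18 (edgeR adjusted p = 0.678). Gnai3, a Gi subunit, had a log2 fold change of -0.32 ± 0.22 (edgeR adjusted p = 0.736), and Kcnj6, a subunit of the potassium channel that these receptors open, one of 0.23 ± 0.18 (edgeR adjusted p = 0.770).

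Of 12 genes of Gq coupling and its effectors, 11 were tested, 2 with an unadjusted p under 0.05 and a higher level in cKO (5.02% of all genes tested were so) and 0 lower (3.7% of all), with a median of -0.03. Gna11, a Gq-class subunit, ran from 56.3 to 74.2 CPM in cKO and from 41.2 to 45.4 CPM in WT, so its groups did not overlap, as for 7.19% of all genes tested. Its log2 fold change was 0.65 ± 0.12 (edgeR adjusted p = 0.470), and DESeq2 gave an adjusted p of 0.000864, where the other alternatives gave 0.072 to 0.951. Plcb1, a phospholipase C, had a log2 fold change of -0.23 ± 0.11 (edgeR adjusted p = 0.601).

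All 17 genes of Gs coupling and its effectors were tested, 3 with an unadjusted p under 0.05 and a higher level in cKO (5.02% of all genes tested) and 0 lower (3.7% of all), with a median of 0.11. Prkaca, a catalytic subunit of protein kinase A, averaged 268 ± 40.6 CPM in cKO and 197 ± 6.51 CPM in WT, with a log2 fold change of 0.44 ± 0.13 (edgeR adjusted p = 0.499). Adcy5, an adenylyl cyclase, averaged 54.2 ± 6.97 CPM in cKO and 40.6 ± 1.67 CPM in WT, with one of 0.41 ± 0.13 (edgeR adjusted p = 0.499). The ranges of both genes lay apart between the groups, as for 7.19% of all genes tested. Ppp1r1b, a phosphatase inhibitor regulated by protein kinase A, had a log2 fold change of 0.70 ± 0.29 (edgeR adjusted p = 0.558).

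Of 11 partner and trafficking proteins of the receptors, 10 were tested, with a median of 0.06. None had an unadjusted p under 0.05, against 8.72% of all genes tested. S100a10, the gene of p11, had 6.51, 6.71, 8.20, 4.12 and 2.31 CPM in cKO 1 to 5, against 4.87, 4.88 and 6.27 CPM in WT 1 to 3. The cKO libraries spread to both sides of the WT range, and the log2 fold change was 0.06 ± 0.37 (edgeR adjusted p = 0.980). Anxa2, the partner of p11 in its complex, was at most 0.130 CPM in cKO and 0.239 CPM in WT, and was not tested. Yif1b, which carries HTR1A to dendrites, had a log2 fold change of 0.60 ± 0.29 (edgeR adjusted p = 0.580). Rps6ka3, a kinase known to restrain HTR2A signalling, had -0.31 ± 0.22 (edgeR adjusted p = 0.743) and Snx27, a sorting nexin that binds HTR4, had 0.12 ± 0.12 (edgeR adjusted p = 0.825).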

How the data were processed

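RNA from TRAP pull-downs was sequenced for 5 cKO and 3 WT libraries of 4 pooled hippocampi each. The deposited table holds raw counts per Ensembl gene, made by the authors with STAR 2.5.3a and HTSeq on mm10, per the submitters' processing notes. The annotation release, the strandedness of counting and any filter are not given in the sources used here. Symbols (matched for 37607 genes, 96.4%), exon lengths and positions came from GENCODE M21, and promoter windows from RefSeq (GRCm38.p6).

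From the counts, TMM scaling, filterByExpr by group and a robust quasi-likelihood fit over all genes (edgeR 4.0.16, R 4.3.3) gave two-sided tests of cKO against WT, with Benjamini-Hochberg adjustment over 17654 genes and calls at an adjusted p under 0.05. Single CPM values were compared by exact permutation over 56 assignments. CPM was divided by the union of exons in kb for levels between genes. Total counts lay between 31760155 and 61823651; floors are 3 counts and cover counting error only. Alternatives were other scalings, filters and dispersions, each library left out, 6 libraries with and without a replicate block, DESeq2 1.42.0 and limma-voom (limma 3.58.1).

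Members, gene lists and markers were chosen with earlier results of these data known. Named genes are the members, the other receptor genes, Hltf, S100a10, the up to 3 genes of each pathway list with the smallest p, and the 3 genes most correlated with each of the 3 members of highest level (mean CPM of at least 5, predicted genes left out). Wfs1 falls under 2 of these choices, and Anxa2, Slc6a4, Fev and the markers named were given as list members. D430036J16Rik was named because it overlaps Htr1b. A gene that this rule names is not reported here.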

Additional observations from a re-analysis of the deposited data

Results flagged for a closer look

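Of 30 genes examined for 1 library far from the others of its group, 2 had one among the 5 cKO libraries, and chance gives about 1 in 20, here 1.5. Htr4 reached 11.7 CPM in cKO 4, and the gap to the next cKO library was 0.8 of the range of the group. Without cKO 4, the log2 fold change of Htr4 was 0.17 in place of 0.41. Hltf reached 11.4 CPM in the library labelled cKO 5, where the gap to the next cKO library was 0.737 of the range. That level lies within the WT range, which ran from 8.39 to 13.7 CPM. The causes of both values were not tested.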

How the results depend on the processing

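No member was called under any alternative run, and the fit as reported called no gene. Over all genes, the number called was 1 with library totals alone, 2 without a filter, 2 when the filter asked 3 libraries to reach 1 CPM, 2 at an adjusted p under 0.1, 4 with limma-voom (3 higher, 1 lower), 10 in the 6 libraries with cKO 1 to 3 (5 higher, 5 lower) and 125 with DESeq2 (77 higher, 48 lower). The cause was not tested.

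Of 162 comparisons of a member's log2 fold change with an alternative, 140 kept their direction and 22 lay on the other side of 0. With limma-voom these were Htr1b (-0.032), Htr2a (-0.16) and Htr5a (-0.095). In the 6 libraries they were Htr1b (-0.36), Htr1f (-0.037), Htr2a (-0.25), Htr2c (0.12) and Htr5a (-0.21). Among genes that are not members, Htr5b (-0.022) and Kcnj6 (-0.032) also lay on the other side of 0 there. Leaving out 1 library each, the values ranged from -0.022 to 0.47 for Htr1b, -0.11 to 0.17 for Htr2a, -0.39 to 0.017 for Htr2c, -0.10 to 0.24 for Htr5a, -0.078 to 0.61 for Htr7, -0.071 to 0.54 for Htr5b, -0.20 to 0.42 for Htr6 and -0.11 to 0.25 for S100a10. Of 358 comparisons for the other named genes, 346 kept direction and call, and Gna11 passed the threshold with DESeq2.

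Whether the replicate numbers pair the libraries was not decided. Deviations of same-numbered libraries from their group means correlated at -0.10, 0.03 and 0.03 over 14629 genes. The cKO mean included the libraries that lay far from the rest in the principal components. A shift shared by the other cKO libraries can therefore hide an effect of pairing. With the replicate number as a block, 0 genes were called, and the log2 fold changes were -0.35 for Htr1b, -0.070 for Htr1f, -0.24 for Htr2a, 0.12 for Htr2c, -0.20 for Htr5a, -0.072 for Htr5b and -0.036 for Kcnj6. Htr1d did not pass the filter; without a filter all 10 members were tested and none was called.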
